A study of Mus musculus with 2 samples.

Results

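miRNAs of miRBase, the registry that names them, carry numbers in the order of their submission, and those from miR-1890 to miR-1999 entered it from deep sequencing of small RNAs rather than from the cloning that found the first families. Of the 566 mouse miRNA probes counted in Müller glia (MG), the radial glia that span the retina, 67 carry a number in this range (any letter or arm). The 2 probes for miR-1937 were left out by the rule. The members were chosen by their number alone, but the range itself was selected on the raw and normalized counts of these libraries, in which some of its members stood out, so the levels and changes given here describe them and test nothing. At the ends of the range, the lowest number on the panel was miR-1892 (raw counts of 13 in Dicer-CKO and 47 in wild-type) and the highest was miR-1983 (10 and 16). Just outside stood miR-1839-5p (22 in Dicer-CKO and 106 in wild-type), miR-1839-3p (19 and 13) and miR-2132 (18 and 17), while miR-1937c was counted 111 times in Dicer-CKO and 586 times in wild-type and the joint probe for miR-1937a and miR-1937b 314 and 986 times.

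Adult MG were sorted by FACS for the red fluorescent protein tdTomato. The Dicer-CKO sample came from Rlbp1-CreER:tdTomato:Dicerf/f mice, in which tamoxifen-activated Cre removes the floxed part of Dicer1 in the cells that express it, and the wild-type sample from Rlbp1-CreER:tdTomato mice without the floxed alleles. The tdTomato and the floxed Dicer1 lines were on a 129SvJ background. Both groups received tamoxifen at 75 mg/kg from postnatal day 11 to 14 and carried the Cre driver, whose Rlbp1 promoter is active in MG and, as the study states, in some cells of the retinal pigment epithelium. Cells of 26 retinas were pooled for Dicer-CKO and of 40 for wild-type (1 label of the wild-type sample gives 26), with 1 library for each, and since neither group has a replicate, no difference could be set against the spread between samples and no p-value is given.

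Dicer is the enzyme that cuts the hairpin precursor of a miRNA into the short duplex from which the mature strand is loaded into Argonaute. The seed, bases 2 to 8 from the 5′ end, sets most of the target choice, and miRNAs with one seed are counted as a family. Members of the oldest families are conserved across animals, whereas many entries with high numbers are known from rodents only, and some later proved to be fragments of other RNAs. In the assay each mature miRNA is ligated to a tag, hybridized in solution to a barcoded probe and counted without amplification, and raw counts are therefore numbers of barcodes.

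Mature sequences under the exact probe name were found in the RefSeq table (mouse assembly GRCm38.p6) for 40 of the 67 members, 8 of them among the 16 members that were detected. These 8 are shown with the seed in capitals, since they are the molecules whose counts are described here.
miR-1960: cCAGUGCUguuagaagagggcu
miR-1900: gGCCGCCCucucugguccuuca
miR-1896: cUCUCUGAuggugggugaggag
miR-1961: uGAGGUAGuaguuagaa
miR-1933-5p: aGUCAUGGuguucggucuuaguuu
miR-1951: gUAGUGGAgacugguguggcua
miR-1906: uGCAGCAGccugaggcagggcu
miR-1952: uCUCCACCcuccuucug
No seed was shared between members. The 40 matched members had 40 distinct seeds, and 7 of them shared the seed with another mature miRNA of the table. The matched members were 17 to 26 bases long with a median of 22, and 3 of them had 17 bases, among them the detected miR-1961 and miR-1952. The G and C content of the 8 detected members had a median of 56.7% (35.3 to 68.2%), and that of the 32 undetected ones a median of 55.5% (39.1 to 72.7%).

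miR-1961 and the undetected miR-1928 repeat the start of long-known miRNAs, and are set here beside them because a probe of a near copy may take up part of the other's signal. The seed of miR-1961 is that of the let-7 family, which keeps cells differentiated, and the seed of miR-1928 is that of miR-221 and miR-222, regulators of the cell cycle. Capitals again mark bases 2 to 8.
miR-1961: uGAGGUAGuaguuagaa
let-7g-5p: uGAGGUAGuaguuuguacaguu
let-7i-5p: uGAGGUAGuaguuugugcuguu
miR-1928: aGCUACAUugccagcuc
miR-221-3p: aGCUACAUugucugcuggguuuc
miR-222-3p: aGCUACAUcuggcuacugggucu
miR-1961 shares its first 13 bases with let-7g-5p and let-7i-5p, and miR-1928 its first 10 with miR-221-3p and its first 8 with miR-222-3p.

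The libraries differed in total count and in content. Over all 626 probes, 139812 barcodes were counted in Dicer-CKO and 769736 in wild-type, and over the mouse miRNA probes 52644 and 695390. Background, the mean of 8 negative controls per library, was removed and counts were scaled by the positive controls and then by 4 housekeeping mRNAs (Actb, Gapdh, Rpl19 and B2m). The detection limit was set 2 SD over that background, at 53.2 raw barcodes in Dicer-CKO and 71.7 in wild-type, which correspond to normalized counts of 90.0 and 23.6. All 6 miRNAs listed for MG were detected in both libraries, with summed normalized counts of 48251 in Dicer-CKO and 337788 in wild-type. The lists for other cells had higher sums in Dicer-CKO on this scale, with of 8306 in Dicer-CKO and 1137 in wild-type for 4 neuronal miRNAs (3 and 4 detected), 3315 and 402.4 for 3 photoreceptor miRNAs (2 detected in each), 1346 and 296.7 for 5 immune cell miRNAs (4 in each) and 839.1 and 121.2 for 2 vascular miRNAs (1 in each). With positive controls only, the immune cell sum was 0.836 times that of wild-type and the other 3 sums stayed higher. miR-451, miR-144 and miR-486 of red blood cells were detected in neither library. The part of these other cells in the values of the members was not tested, and fewer MG in a sort and less of a miRNA per MG cannot be told apart in pooled RNA. The study reports a high post-sort purity of tdTomato-positive cells, similar in both groups, which was not set against these counts. Dicer1 mRNA is not on the panel, and the study describes its deletion in the sorted MG as incomplete, so the sorted cells may hold some that kept Dicer1.

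Of the 67 members, 3 were detected in Dicer-CKO and 16 in wild-type. miR-1944, miR-1960 and miR-1965 were detected in both, 13 members in wild-type only, and the other 51 in neither. In wild-type MG 23.9% of the members were detected, fewer than the 47.9% of the 242 long-known miRNAs (let-7 and the numbers up to miR-399) and more than the 14.7% of the 232 miRNAs from miR-400 to miR-1889. Over all mouse probes this share was 30.2%. In Dicer-CKO MG the shares were 4.48% of the members, 26.0% of the long-known, 3.45% of those from miR-400 to miR-1889 and 13.6% of all mouse probes. The undetected members overlapped probes with no mouse target in raw count. The 51 undetected members had a median raw count of 11 in Dicer-CKO (1 to 34) and 26 in wild-type (5 to 68), against medians of 18 (3 to 32) and 42 (5 to 91) for the 33 probes for viral miRNAs. The median of these members lay below that of the viral probes in both libraries, but they were picked for lying under both limits, which lowers it. Over all 67 members the median was 12 in Dicer-CKO and 42 in wild-type, the latter equal to that of the viral probes. Of the viral probes, 2 passed the detection limit in wild-type and 0 in Dicer-CKO. The highest viral probe, at 32 in Dicer-CKO and 91 in wild-type, is a looser mark than the detection limit in Dicer-CKO and a stricter one in wild-type. Above it lay 10 of the 67 members in Dicer-CKO and 15 in wild-type, beside 130 and 140 of the 566 mouse probes. In wild-type, miR-1952 with a raw count of 75 was the detected member that did not lie above it.

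**Figure D1:**
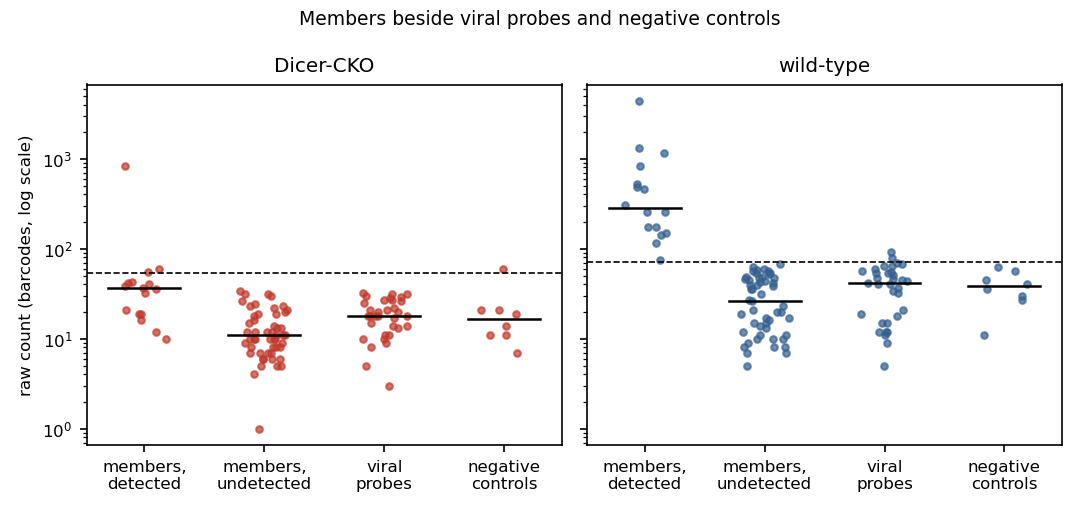
Raw counts (log scale) of the 16 detected and the 51 undetected members, the 33 viral probes and the 8 negative controls in the Dicer-CKO library (left) and the wild-type library (right), 1 point per probe, with bars at the medians and a dashed line at the detection limit. The undetected members overlap the viral probes and the negative controls in both libraries, and 1 negative control with a raw count of 59 stands above all others in Dicer-CKO.

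Among the well-counted members miR-1944 stood first. Its raw count was 820 in Dicer-CKO and 4389 in wild-type, and its normalized counts of 2191 and 3114 placed it 13th and 18th among the mouse probes of their library. It was followed by miR-1927, with raw counts of 43 in Dicer-CKO and 1331 in wild-type, by miR-1960 with 60 and 1168, and by miR-1965 with 55 and 825. All 4 stood well above the limit in wild-type, while the Dicer-CKO counts of the 3 after miR-1944 lay near the limit of 53.2. miR-1966 was counted 38 times in Dicer-CKO and 520 times in wild-type, miR-1968 19 and 479 times, miR-1900 37 and 455 times and miR-1896 42 and 308 times. A lower group began with miR-1961 (36 in Dicer-CKO and 258 in wild-type) and miR-1933-5p (21 and 254). miR-1951 was counted 19 times in Dicer-CKO and 175 times in wild-type, miR-1955 32 and 174 times, miR-1959 16 and 149 times and miR-1906 41 and 141 times. Every Dicer-CKO count of this lower group was under the limit. miR-1981, with 12 in Dicer-CKO and 117 in wild-type, and miR-1952, with 10 and 75, were closest to the wild-type limit of 71.7. The raw count was lower in Dicer-CKO for each of the 16, as it was for 63 of the 67 members and for 90.3% of all mouse probes, at 5.35-fold to 31.0-fold for the 8 members from miR-1944 to miR-1896.

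**Figure D2:**
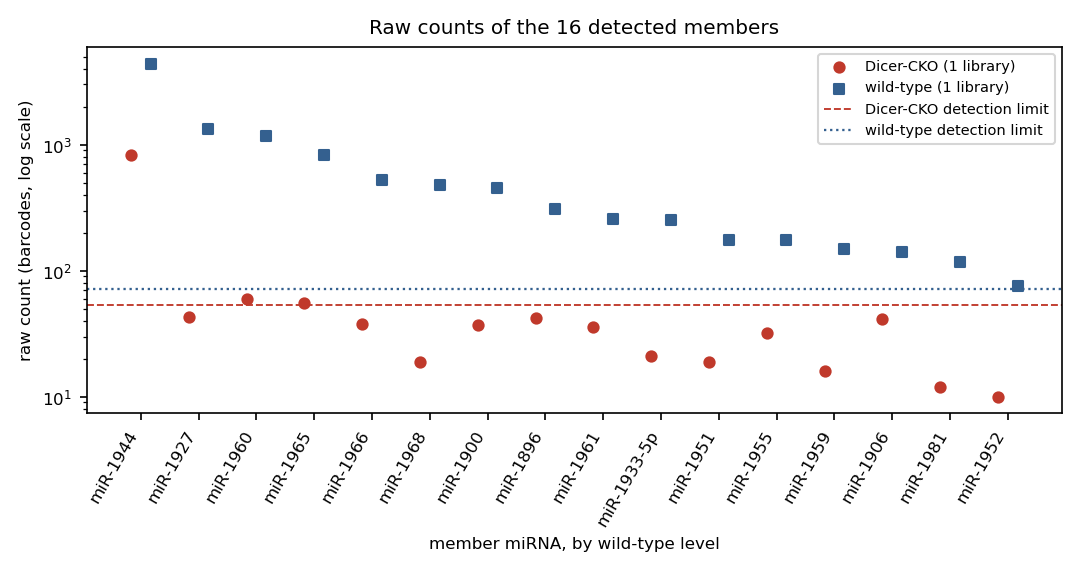
Raw barcode counts (log scale) of the 16 detected members, ordered by wild-type level, in Dicer-CKO (circles) and wild-type (squares), 1 library each, with the detection limit of each library. Only miR-1944, miR-1960 and miR-1965 lie above the limit in Dicer-CKO, the last 2 by less than 10 barcodes.

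On the housekeeping scale, 7 members were lower in Dicer-CKO by at least 2-fold with an interval that left out equality, and 0 were higher. Across the mouse probes detected in either library, 29.9% were lower and 12.1% higher by the same rule, against 43.8% and 0% of the 16 detected members. A member at or below the Dicer-CKO limit was taken at that limit, so that its value is an upper bound, and for 4 members the bound did not give a direction. Intervals are exact 95% intervals of the raw count ratio, cover counting error only and are too narrow for counts near background. For a probe at or below a limit, that limit, rounded up to whole barcodes, stood in place of its count. The interval of a bound is thus not an interval of what remained, and its lower end sets no lower bound.

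Besides miR-1944, both members measured in the 2 libraries were left with a small part of their wild-type level. miR-1960 had a normalized count of 108.6 in Dicer-CKO and 808.5 in wild-type, which left 13.4% (10.2 to 17.4%), and miR-1965 had 94.9 in Dicer-CKO and 562.9 in wild-type, which left 16.9% (12.6 to 22.2%). Among the 74 mouse probes detected in both libraries these were the 5th and the 7th lowest ratios, an order that leaves out probes undetected in Dicer-CKO. The Dicer-CKO raw counts of miR-1960 (60) and miR-1965 (55) lie close to the highest negative control there (59). With the limit set at that control, miR-1965 was not detected in Dicer-CKO and at most 18.8% remained. miR-1927 stood at or below the limit in Dicer-CKO against 925.1 in wild-type, so that at most 9.73% remained (7.27 to 12.8% with the limit as its count). For miR-1966, with a wild-type count of 344.6, at most 26.1% remained, for miR-1968 (315.2) at most 28.6%, for miR-1900 (298.1) at most 30.2% and for miR-1896 (192.8) at most 46.7% with an interval of 34.3 to 62.5%. For these 5 members a wild-type count of 180.1 or more, which is 2 times the Dicer-CKO limit, makes the 2-fold difference follow from the lack of detection, so their count shows only that none of them was detected in Dicer-CKO. With libraries set to equal sums of detected mouse miRNAs the bounds were 109% for miR-1966, 119% for miR-1968, 126% for miR-1900 and 195% for miR-1896, which ends these 4 calls and leaves the direction open.

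miR-1944 differed from these. It kept 70.3% of its wild-type level (65.2 to 75.8%) and was not called, although its interval left out equality. Of the 74 probes detected in both libraries it had the 48th lowest ratio. Its direction depends on the scale: by the positive controls alone 13.0% remained, and when libraries were set to equal sums of detected mouse miRNAs it was 2.94 times the wild-type level, where miR-1960 stood at 56.1%, miR-1965 at 70.4% and miR-1927 at most at 40.6%. It made up 1.89% of the normalized count of detected mouse miRNAs in Dicer-CKO and 0.644% in wild-type. All members together made up 2.07% in Dicer-CKO and 1.51% in wild-type, and without miR-1944 0.176% and 0.866%. In the Dicer-CKO sum without miR-1944, 13 of the 15 other members detected in wild-type count as 0 because they lie under the limit, so the lower share of these members follows largely from the limit. Exact 95% intervals of the shares of raw counts were 2.0 to 2.27% in Dicer-CKO and 1.56 to 1.62% in wild-type for all members, and 0.217 to 0.315% and 0.920 to 0.966% without miR-1944.

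The remaining 8 detected members had wild-type counts under 180.1 and were all at or below the limit in Dicer-CKO. miR-1961 (157.0 in wild-type) and miR-1933-5p (154.2) had at most 57.3% and 58.4% remaining, and miR-1951 (97.6) and miR-1955 (96.9) at most 92.2% and 92.9%, the last 2 with intervals that held equality. For miR-1959 (79.0), miR-1906 (73.3), miR-1981 (56.1) and miR-1952 (26.0) the wild-type count was below the Dicer-CKO limit of 90.0 and the direction was open.

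The Dicer-CKO limit rests largely on 1 negative control. That control had a raw count of 59 in Dicer-CKO, where the other 7 lay between 7 and 21, and 62 in wild-type, where the highest of the others was 57. With the highest control of each library left out of the limit, the limits were 26.0 in Dicer-CKO and 64.6 in wild-type. By these limits 22 members were detected in either library, 15 of them in Dicer-CKO. Of these, 13 were lower and 1 higher (59.1% and 4.55%), against 42.4% and 14.4% of all mouse probes detected in either. The control stayed in the subtracted background, whose mean in Dicer-CKO was 20.4 with it and 14.9 without it. The percentages that follow, bounds included, hold for that background only, and a smaller one would raise them. miR-1927 was then measured in both libraries with 6.70% remaining (4.83 to 9.08%), miR-1966 with 14.0%, miR-1900 with 15.3% and miR-1896 with 30.7%, and miR-1968 was at most at 4.85%. Also lower were miR-1933-5p (at most 9.92%), miR-1951 (at most 15.7%), miR-1959 (at most 19.4%) and miR-1981 (at most 27.3%), as well as miR-1961 with 27.3% and miR-1955 with 32.9%. The member called higher, named after its values were seen, was miR-1964, whose raw count of 34 in Dicer-CKO was 2 barcodes above the highest viral probe there and whose 57 in wild-type lay below the highest viral probe, at 91.

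Against long-known miRNAs the members were compared first over all detected probes and then over those high enough for a 2-fold fall to be seen. With members at their bound where needed, the median log2 ratio over the detected members was -0.79, that of the long-known miRNAs 0.14 and that of all mouse probes 0.27, a difference of members minus long-known of -0.93 on the log2 scale. With long-known miRNAs taken only up to miR-199 this difference was -0.24. Since bounds fill much of these lists, the same was taken over probes with a normalized count of at least 180.1 in either library. Of 8 such members, 7 were lower, 0 higher and 1 not called, against 43 lower, 12 higher and 7 not called of 62 long-known miRNAs. Over all 76 mouse probes of this level, 68.4% were lower and 17.1% higher. At or below the limit in Dicer-CKO were 5 of these 8 members and 5 of the 62 long-known miRNAs. They reached this level through wild-type alone and had to be lower, so nothing is read from the counts of the members against those of the long-known.

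**Figure D3:**
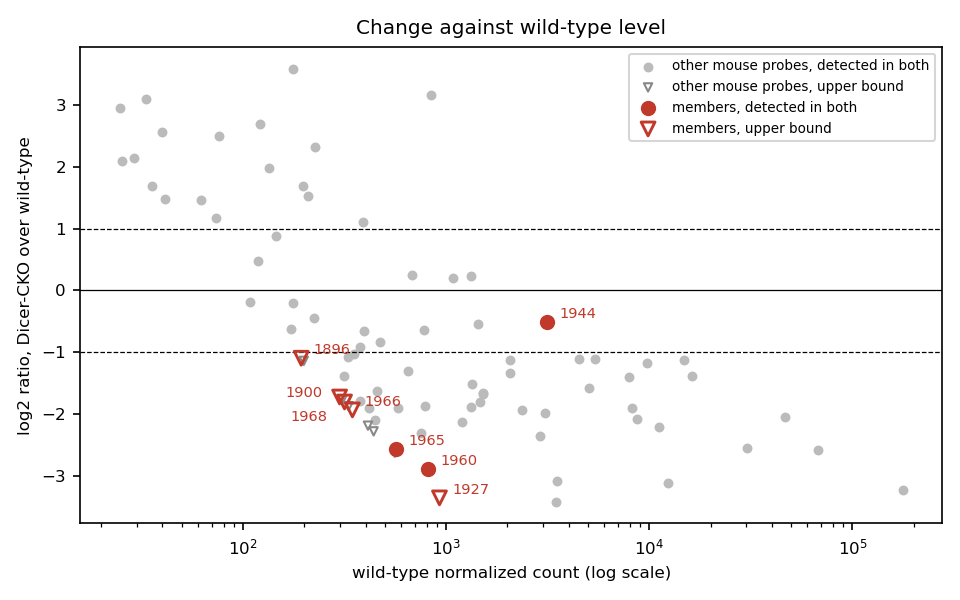
The log2 ratio of Dicer-CKO over wild-type against the wild-type normalized count (log scale), 1 point per mouse probe that was detected in both libraries (circles) or was at or below the limit in Dicer-CKO with a wild-type count of at least 180.1 (open triangles, upper bounds), members in red. The bounds lie on a line because the Dicer-CKO limit is 1 value, and miR-1944 stands above most probes of its level while miR-1960 and miR-1965 stand among the lowest.

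The probes next to each member in wild-type level were compared with it one by one. miR-1944 (3114 in wild-type) lay between miR-100, a miRNA of MG with 9.32% remaining (7.82 to 11%), and miR-22 with 25.1% (22.3 to 28.3%), and its interval of 65.2 to 75.8% overlapped neither. miR-1927 lay between miR-29b, which stood at 115% of wild-type (103 to 127%), and the neuronal miR-124 at 894%, and miR-1960 between miR-124 and miR-151-5p with 27.2% (21.9 to 33.5%). The interval of miR-1960 was below those of both of its neighbours. miR-1965 was set between miR-15b with 26.8% (20.9 to 33.9%) and miR-191 with at most 16.2%, and its interval of 12.6 to 22.2% overlapped both. miR-1966 stood between miR-23b (49.0%) and miR-125b-3p (at most 27.3%), and miR-1968 between miR-181c (47.4%) and miR-15a (38.3%). miR-1900 followed miR-103 (at most 29.3%) and preceded the photoreceptor miR-183 at 499%, and miR-1896 lay between the neuronal miR-129-3p at 323% and the photoreceptor miR-96 at 1206%. Of the 15 neighbours, 10 were lower, 4 higher and 1 was not called, and the 4 higher ones all belong to the lists for neurons and photoreceptors.

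**Figure D4:**
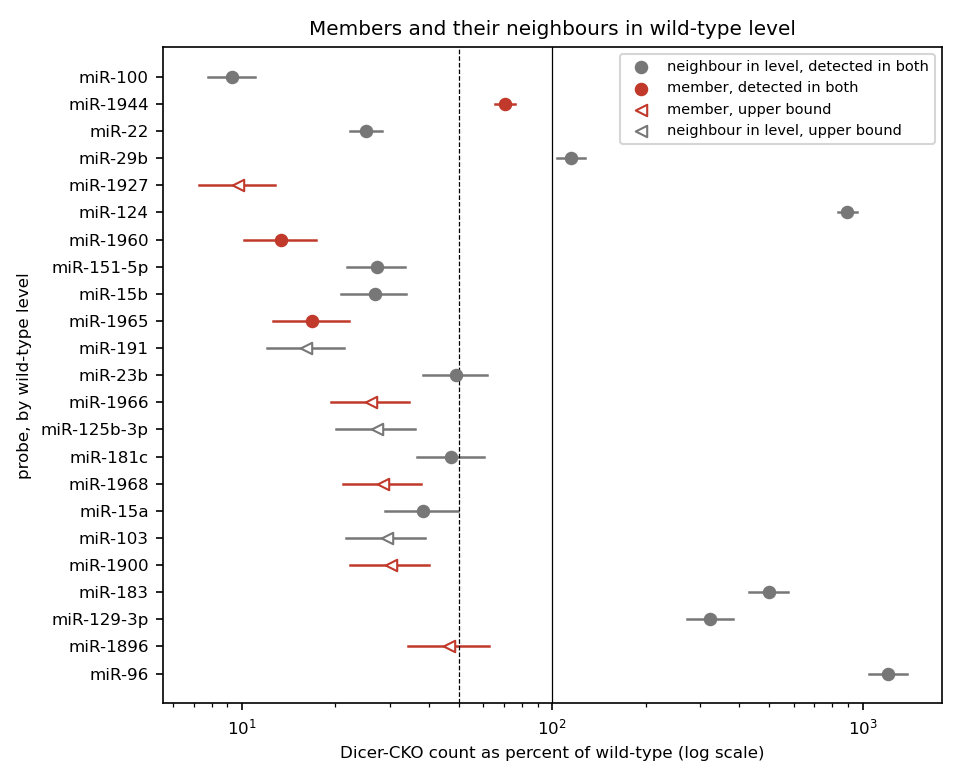
Dicer-CKO normalized count as percent of wild-type (log scale) for the 8 members with a wild-type count of at least 180.1 (red) and the 15 probes next to them (grey), ordered by wild-type level, with exact 95% counting intervals and open triangles for upper bounds. The interval of an upper bound takes the limit as the count. The solid line marks 100% and the dashed line 50%. miR-1944 lies to the right of both of its neighbours. miR-1927, miR-1960, miR-1966, miR-1968 and miR-1896 lie to the left of theirs, all but miR-1960 as upper bounds.

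miR-1961 was counted far less often than the family whose seed it carries. Its raw counts were 36 in Dicer-CKO and 258 in wild-type, against sums of 7091 and 78279 over the 9 let-7 and miR-98 probes. After subtraction of background it equalled 0.226% of the family's sum in Dicer-CKO and 0.281% in wild-type, the first from a count under the detection limit. let-7g, with 13 leading bases in common, had raw counts of 1593 in Dicer-CKO and 13583 in wild-type and kept 44.4% (42.2 to 46.8%), and let-7i, with the same 13, had 193 and 2148 and kept 31.3% (26.9 to 36.3%). The bound of 57.3% for miR-1961 is above both. How much of its count came from let-7 molecules was not tested. Of the other pair of relatives, neither miR-1928 nor miR-221 (20 in Dicer-CKO and 69 in wild-type) nor miR-222 (9 and 28) was detected.

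Where both arms of a hairpin were on the panel, 1 arm at most was seen. miR-1933-5p was counted 21 times in Dicer-CKO and 254 times in wild-type, and its partner miR-1933-3p 13 and 17 times. Both arms of miR-1894 stayed below the limits, with 19 barcodes in Dicer-CKO and 36 in wild-type for 5p and 10 and 8 for 3p, as did both arms of miR-1941, with 11 in Dicer-CKO and 38 in wild-type for 5p and 12 and 43 for 3p. The related miR-1946a (23 in Dicer-CKO and 39 in wild-type) and miR-1946b (12 and 11) were not detected.

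The genes of 60 members are placed in the RefSeq gene table, and 46 of them lie within the span of a protein-coding gene, 11 of 13 for the detected members and 35 of 47 for the others. Among the detected members, miR-1944, miR-1965 and miR-1959 had neither a gene in this table nor a matched mature sequence. The table holds no exons, so intron and exon were not told apart, nor was the strand of the host compared. Mir1927 (chr1:160295864-160295972) lies within Rabgap1l, a regulator of Rab GTPases, and Mir1960 (chr5:30170739-30170816) within Hadhb, a subunit of the mitochondrial enzyme of fatty acid oxidation. Mir1966 (chr8:105615466-105615573) lies within Ripor1 and Mir1968 (chr8:13189031-13189098) within Grtp1. Mir1900 (chr9:21032251-21032328) lies within Icam5, an adhesion molecule of neurons, and Mir1896 (chr13:21445160-21445240) within Zscan26 and the long noncoding 4930470G03Rik. Of the members with lower counts, Mir1961 (chr5:92788451-92788562) lies within Shroom3, which shapes epithelial cells, Mir1933 (chr11:21344588-21344675) within Ugp2, an enzyme of UDP-glucose synthesis, Mir1951 within BC052040, Mir1955 within Phf21a, a subunit of a histone demethylase complex, and Mir1981 within Mtarc2. miR-1906 has 2 genes, Mir1906-1 (chr12:109544541-109544620) within the imprinted noncoding Meg3 and Mir1906-2 (chrX:88759474-88759553) outside the spans of other genes, and a probe for the mature miRNA cannot tell them apart. Mir1952 (chr2:138819929-138820007) also lies outside the spans of other genes.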

How the data were processed

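miRNAs of FACS-sorted MG were measured with the NanoString nCounter assay, 1 pooled library per group, and groups were taken from the sample labels. For either library the authors deposited the raw barcode counts, not normalized, and a joint table of normalized values, a score in whole numbers that per the study's methods rests on housekeeping genes, negative and positive controls. Its further steps were not given in the sources used here. Values were computed from the raw counts, with the mean of 8 negative controls subtracted and geometric mean factors of 6 positive controls and 4 housekeeping genes. A 2-fold rule and exact 95% intervals (Clopper-Pearson, scipy 1.17.1) gave the calls, and the deposited scores served as an alternative. Members, lists and alternatives were chosen with earlier results of these data known. Every detected member is named, as are the probes next to those at or above 2 times the Dicer-CKO limit. The calling rule was tried on simulated counts with known changes, and only well-counted probes were assessed. Members with lower counts were not covered by this. Sequences and gene positions come from RefSeq tables.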

Additional observations from a re-analysis of the deposited data

How the results depend on the processing

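No paired analysis was possible because each group held 1 library. With deposited normalized counts, 7 members were again lower and 0 higher, and miR-1927 was lower under each of the 12 alternatives that gave it a value. miR-1960 and miR-1965 lost their call only when libraries were set to equal sums of detected mouse miRNAs. miR-1900, miR-1966 and miR-1968 lost it there and with a limit at a raw count of 100, and miR-1896, nearest to the 2-fold rule, under 5 alternatives. With equal sums 1 member was lower and 1 higher (miR-1944), and the median log2 ratio of the members reversed to 1.27, while 2.87% of all mouse probes detected in either library were lower and 21.3% higher. With positive controls only, 15 of 16 were lower and the median was -3.23, with 78.7% of all mouse probes lower as well. With a limit at a raw count of 100, 1 member was detected in Dicer-CKO, 3 of 15 were lower (20.0%, below the 28.3% of all mouse probes), the median reversed to 0.18 and the difference from long-known miRNAs was -0.040. With the mean plus 2 SD as background, under which only probes detected in both libraries give a ratio, 2 of 3 were lower (43 of 74 over all mouse probes), the median was -5.17, the difference -3.66 and the members' share of wild-type counts 1.44%, which was 1.59% without subtraction. Both limits added after seeing the data detected more members in Dicer-CKO. Without the highest negative control in the limit, but with it still in the background, these were 15, with 13 lower and 1 higher (42.4% and 14.4% of all mouse probes). The median was then -1.79 and the share of Dicer-CKO counts 2.40%. With a limit from the viral probes these were 9, with 11 of 15 lower (73.3%, against 39.5% of all mouse probes), a median of -1.88 and a share of 2.29%. A 4-fold rule left 3 lower (18.8%, against 10.9% of all mouse probes). The median was -2.57 over members detected in both libraries and -1.87 over those at or above 2 times the limit, where the difference from long-known miRNAs was -0.41. Over all detected probes this difference was -0.24 with long-known miRNAs only up to miR-199. The causes of these shifts were not tested. In Dicer-CKO a member at or below a normalized count of 90.0 was not detectable, a limit which 1 negative control largely sets.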
